A study of Homo sapiens with 12 samples.

Results

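NFE2L2 encodes NRF2, a transcription factor, and KEAP1 encodes the protein that holds it in check. Together with 7 genes that NRF2 is known to switch on (GCLC, GCLM, TXNRD1, SRXN1, NQO1, HMOX1 and OSGIN1) they form the set described here, 9 genes of the 12756 tested. The 9 were chosen by symbol as known members of the pathway, and all 9 are listed in each table. They were followed in HCT116 cells, a colorectal cancer line of human origin, with 3 replicates in each of 4 groups. These groups carried a knockout of AGO2, a knockout of ANKRD52, a double knockout of ANKRD52 and CSNK1A1, or no targeted loss (parental). All cells were collected 48 hours after plating, and none of the groups received a drug or an oxidant, as far as the labels say. AGO2 loads microRNAs and binds the messages they pair with, ANKRD52 belongs to the PP6 phosphatase complex, and CSNK1A1 encodes a casein kinase of the alpha type. The labels do not say whether a knockout was a single clone or a pool, nor whether replicates were separate cultures. The p-values thus rest on the variation among these 12 libraries, part or all of which may be technical.

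In resting cells KEAP1 binds NRF2 and hands it to the CUL3 ubiquitin ligase, so that NRF2 is degraded almost as fast as it is made. Oxidants and electrophiles react with cysteines of KEAP1, NRF2 then accumulates, pairs with a small MAF protein and binds antioxidant response elements near its targets. NRF2 activity is thus set largely at the protein level, which polyA RNA does not read. BACH1 occupies many of the same elements as a repressor, above all at HMOX1. The targets make glutathione, recycle thioredoxin and peroxiredoxins, reduce quinones and break down heme.

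The values are the authors' own edgeR comparisons of each knockout with the parental line, on the log2 scale, where a value above 0 means a higher level in the knockout. The depth of each library is unknown, and values of single libraries were not analysed here, so each gene is given by its fold change with an approximate 95% interval. A gene was called at an adjusted p under 0.05 over all 12756 genes. In the authors' deposited table CSNK1A1 RNA stood at 18.7% of parental in the double knockout (adjusted p = 1.71e-10) and AGO2 RNA at 47.5% in the AGO2 knockout (adjusted p = 0.0477). ANKRD52 RNA, per the authors' deposited table, stood at 102% in the ANKRD52 knockout (adjusted p = 0.915) and at 63.7% in the double knockout (adjusted p = 2.32e-05). In the AGO2 knockout ANKRD52 RNA stood at 1.80-fold of parental (adjusted p = 8.78e-07) by the authors' deposited table. Counts over a whole gene do not check a small edit in it, so the ANKRD52 label was not checked by its RNA. All 8 colorectal epithelial markers examined were listed, and 7 of them rose in the double knockout. In the ANKRD52 knockout 2 of the 8 fell, EPCAM to 57.2% and CDH1 to 39.8% of parental (adjusted p = 0.000545 and 0.0195), by the authors' deposited table. Of 16 markers of other cell types 4 were listed, and LYZ, VWF and ACTA2 rose in the double knockout while COL1A1 had 0.24 in log2 (adjusted p = 0.281) by the authors' deposited table. The other 12 were not analysed here.

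In no knockout were all 9 NRF2 genes called, and the 9 were not tested as a set. In the AGO2 knockout 1 of 9 rose (GCLM) and 0 fell, against 6.10% of all genes called in that comparison, 3.38% higher and 2.72% lower. The 9 log2 values there ran from -0.06 to 0.49. At an unadjusted edgeR p under 0.05 there were 5 of 9, all higher (NFE2L2, GCLM, TXNRD1, HMOX1 and OSGIN1). The share of all genes at that unadjusted threshold is not given here. In the ANKRD52 knockout 3 of 9 fell (GCLC, TXNRD1 and SRXN1) and 0 rose, against 13.7% of all genes called, 7.62% higher and 6.04% lower. In the double knockout 3 of 9 rose (NQO1, OSGIN1 and HMOX1) and 1 fell (TXNRD1), against 43.0% of all genes called, 22.9% higher and 20.1% lower, so the share of the 9 that passed there, 44.4%, was close to that of all genes. The median log2 fold change of the 9 genes was 0.22 in the AGO2 knockout, 0.05 in the ANKRD52 knockout, and 0.18 for the double knockout. All genes together had medians of 0.0013, 0.0005 and 0.011 in the same order. These 3 comparisons share the parental libraries. In RNA from whole cultures, fewer cells of a type and less RNA per cell cannot be told apart. With the likelihood ratios referred to a stricter F distribution with 1 and 8 degrees of freedom, 0 of 9 were called in the AGO2 knockout and 0 in the ANKRD52 knockout (4 and 3 at an unadjusted p under 0.05), where the edgeR values as deposited call 1 and 3. NQO1, OSGIN1 and HMOX1 kept their call in the double knockout under it. Of all genes, the F distribution called 0 in the AGO2, 3 in the ANKRD52 and 3784 in the double knockout. The share of all genes at an unadjusted p under it is not given here.

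**Figure D1:**
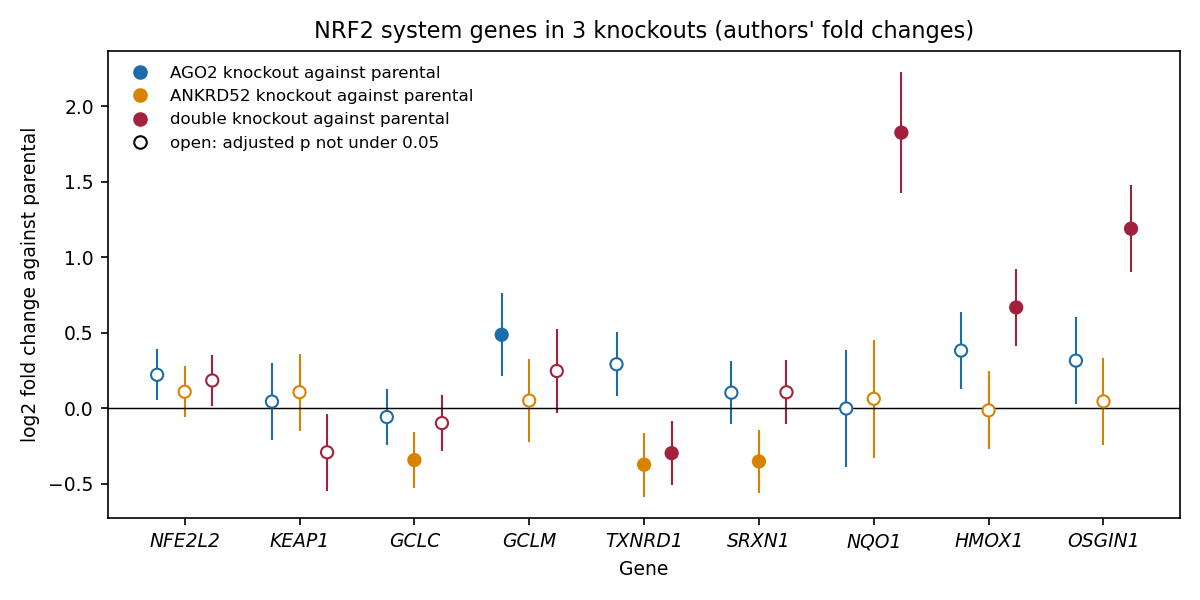
Log2 fold change against parental (vertical axis) of each of the 9 genes (horizontal axis) in the AGO2, ANKRD52 and double knockouts, with lines for the approximate 95% interval and filled points for an adjusted p under 0.05. NQO1 in the double knockout stands highest at 1.83, and the ANKRD52 knockout values of GCLC, TXNRD1 and SRXN1 lie between -0.37 and -0.34.

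NFE2L2 itself passed in none of the 3 comparisons. Its RNA stood at 1.17-fold of parental in the AGO2 knockout (95% interval 1.04 to 1.31, adjusted p = 0.0972), per the authors' deposited table. The authors' deposited table puts it at 1.08-fold in the ANKRD52 knockout (0.961 to 1.21, adjusted p = 0.438) and at 1.14-fold in the double knockout (1.01 to 1.28, adjusted p = 0.0682). The intervals leave room for a rise of up to 1.31-fold and for little or no fall. The approximate standard error of NFE2L2 was small for its level: only 13.6% of 1099 genes of like expression had a smaller one.

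KEAP1, the substrate adaptor that brings NRF2 to CUL3, had 1.03-fold the parental level in the AGO2 knockout (0.864 to 1.23, adjusted p = 0.885) in the authors' deposited table. The ANKRD52 knockout had 1.08-fold (0.902 to 1.29, adjusted p = 0.656) and the double knockout 0.817-fold (0.684 to 0.977, adjusted p = 0.0590), per the authors' deposited table. The last value lay just outside the threshold, and subtracting the median of all genes brought it just inside (adjusted p = 0.0491). KEAP1 was lower in the double knockout than in the ANKRD52 knockout by a tested difference, given further on.

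GCLC and GCLM encode the catalytic and modifier subunits of glutamate-cysteine ligase, the rate-limiting enzyme of glutathione synthesis, and they were called in different knockouts. GCLM rose 1.40-fold in the AGO2 knockout (95% interval 1.16 to 1.70, adjusted p = 0.0176), per the authors' deposited table. In the ANKRD52 knockout GCLM had 1.04-fold (0.856 to 1.25, adjusted p = 0.866) and in the double knockout 1.19-fold (0.981 to 1.44, adjusted p = 0.144), from the authors' deposited table. GCLC had 0.961-fold in the AGO2 knockout (0.846 to 1.09, adjusted p = 0.777) in the authors' deposited table. It fell to 78.9% of parental in the ANKRD52 knockout (adjusted p = 0.00521), while the double knockout stood at 93.5% (adjusted p = 0.416), per the authors' deposited table. The fall of GCLC in the ANKRD52 knockout amounts to 0.34 on the log2 scale with an approximate standard error of 0.094.

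The region around the start of GCLM is shown because this was the only one of the 9 genes called in the AGO2 knockout, and its window holds the stricter form of the response element core. The 300 bases at chr1:93909381-93909680 (GRCh38.p14, minus strand, RefSeq) run from 250 bases before to 50 after the start, and capitals mark each match to the core TGANNNNGC on either strand.
GCLM: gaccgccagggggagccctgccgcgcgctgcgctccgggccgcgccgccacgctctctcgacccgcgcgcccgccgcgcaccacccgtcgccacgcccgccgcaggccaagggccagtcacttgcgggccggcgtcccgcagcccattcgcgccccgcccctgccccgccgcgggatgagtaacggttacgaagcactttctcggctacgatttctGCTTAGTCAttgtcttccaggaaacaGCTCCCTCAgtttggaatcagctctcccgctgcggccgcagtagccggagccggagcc
On the minus strand of this window the capitals read TGACTAAGC, at 34 bases before the start, and TGAGGGAGC, at 8 bases before it. The first of these also fits TGACNNNGC.

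TXNRD1, the cytosolic thioredoxin reductase, was the only one of the 9 called in both the ANKRD52 and the double knockout, each time as lower. It stood at 77.2% of parental in the ANKRD52 knockout (95% interval of the fold 0.667 to 0.894, adjusted p = 0.00857), per the authors' deposited table. In the double knockout it stood at 81.4% (0.703 to 0.943, adjusted p = 0.0169), where the F distribution ended the call (adjusted p = 0.0712 in place of the value in the authors' deposited table). In the AGO2 knockout the same gene had 122% of parental (1.06 to 1.42, adjusted p = 0.0800), above the threshold, in the authors' deposited table. SRXN1 encodes sulfiredoxin, which repairs overoxidized peroxiredoxins. Its RNA fell to 78.4% of parental in the ANKRD52 knockout (0.677 to 0.907, adjusted p = 0.0142), while the AGO2 knockout had 107% and the double knockout 108%, neither of them called (adjusted p = 0.621 and 0.439). These SRXN1 values are those of the authors' deposited table. The epithelial markers EPCAM and CDH1 fell in the same ANKRD52 knockout in which GCLC, TXNRD1 and SRXN1 fell, and their part in these values was not tested.

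NQO1, HMOX1 and OSGIN1 carried the largest changes, all in the double knockout. NQO1 encodes a quinone reductase and is the usual marker of NRF2 activity. It rose 3.55-fold in the double knockout (95% interval 2.69 to 4.69, adjusted p = 2.34e-17), which placed it above 97.1% of all genes in that comparison in the authors' deposited table. NQO1 had 0.999-fold in the AGO2 knockout (0.763 to 1.31, adjusted p = 0.998) and 1.04-fold in the ANKRD52 knockout (0.798 to 1.37, adjusted p = 0.886), per the authors' deposited table. The spread behind NQO1 was wide for its level: its median approximate standard error of 0.199 exceeded that of 90.8% of 261 genes of like expression.

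OSGIN1, an oxidative stress induced growth inhibitor, rose 2.28-fold in the double knockout (1.87 to 2.79, adjusted p = 1.78e-14) in the authors' deposited table. It had 1.25-fold in the AGO2 knockout (1.02 to 1.52, adjusted p = 0.182) and 1.03-fold in the ANKRD52 knockout (0.844 to 1.26, adjusted p = 0.889), from the authors' deposited table. HMOX1, the heme oxygenase that degrades heme and a classical target of BACH1 repression, rose 1.59-fold in the double knockout (1.33 to 1.90, adjusted p = 3.31e-06) in the authors' deposited table. In the AGO2 knockout HMOX1 had 1.30-fold (1.09 to 1.56) with an adjusted p of 0.0546, just outside the threshold, and in the ANKRD52 knockout 0.991-fold (0.828 to 1.18, adjusted p = 0.969), per the authors' deposited table. Beside these rises, 7 of the 8 colorectal epithelial markers rose in the double knockout, while EPCAM had 0.13 in log2 (adjusted p = 0.596, edgeR). The summed implied level of the 8 was 8723 CPM (counts scaled to library size) there, 3422 in the AGO2 knockout and 3182 in the ANKRD52 knockout, against 3316 in parental cells. These sums mostly reflect the keratins KRT8, KRT18 and KRT19, whose mean log2 CPM was 11.2, 9.88 and 9.79. The 4 listed markers of other cell types summed to 41.1 CPM in the double knockout, 23.2 in the AGO2 knockout and 20.7 in the ANKRD52 knockout, against 22.0 in parental cells. VIL1, MUC13 and LYZ had implied parental levels under 0.1. The part of either in the NRF2 values was not tested.

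The windows around the starts of NQO1 and OSGIN1 are shown because these genes rose most. They lie at chr16:69726511-69726810 (minus strand) and chr16:83952990-83953289 (plus strand) of GRCh38.p14, from RefSeq, with capitals for the core TGANNNNGC on either strand.
NQO1: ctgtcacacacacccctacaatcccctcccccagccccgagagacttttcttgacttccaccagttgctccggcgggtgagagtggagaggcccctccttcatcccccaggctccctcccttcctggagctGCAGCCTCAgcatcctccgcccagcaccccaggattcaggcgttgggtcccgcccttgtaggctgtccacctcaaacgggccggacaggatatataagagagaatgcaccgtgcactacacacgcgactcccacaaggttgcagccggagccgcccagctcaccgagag
OSGIN1: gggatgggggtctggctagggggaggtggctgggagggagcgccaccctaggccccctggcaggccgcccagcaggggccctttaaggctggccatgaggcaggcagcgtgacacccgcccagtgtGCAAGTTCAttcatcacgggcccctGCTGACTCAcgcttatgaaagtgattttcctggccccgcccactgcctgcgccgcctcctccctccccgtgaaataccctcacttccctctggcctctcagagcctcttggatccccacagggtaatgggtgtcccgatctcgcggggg
NQO1 held 1 match, TGAGGCTGC on its minus strand at 119 bases before the start. OSGIN1 held TGAACTTGC at 124 and TGAGTCAGC at 99 bases before the start, both on the minus strand. The letters of the last overlap TGANTCA, the sequence bound by AP-1, which OSGIN1 alone of the windows examined here contained and which 7.71% of all 35116 windows hold. Matches to the core say little by themselves: 41.8% of all windows of this length held it, as did 7 of the 11 windows of the NRF2 genes. By gene, 6 of the 8 with a window had a match (NFE2L2, KEAP1, GCLM, TXNRD1, NQO1 and OSGIN1), against 50.9% of 9319 listed genes with a window. The stricter TGACNNNGC was found in GCLM, TXNRD1 and KEAP1 only, 3 of 8, against 19.6% of those 9319 genes, and KEAP1 and GCLM share the same 9 letters, TGACTAAGC. The windows of GCLC and SRXN1 held neither form. HMOX1 is the member with no window. No match says only that these letters are not in the window, and elements farther from the start were not examined.

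Levels of each group in CPM, the share of a library's counts, were worked out from the authors' mean level and fold changes as if the 4 groups weighed equally, and have no spread of their own. NQO1 had an implied 351 CPM in the AGO2 knockout, 367 in the ANKRD52 knockout, and the double knockout had 1247, against 352 in parental cells. The double knockout stood apart from the other 3 groups. TXNRD1 had 654 CPM in the AGO2 knockout, 413 in the ANKRD52 knockout, and the double knockout had 435, against 534 in parental cells. OSGIN1 had 14.8 CPM in the AGO2 knockout, 12.2 in the ANKRD52 knockout, and the double knockout had 27.1, against 11.9 in parental cells. HMOX1 had 32.9, 25.0 and 40.1 CPM in the AGO2, ANKRD52 and double knockouts, against 25.2 in parental cells. Levels of the regulators were flatter than those of these targets. NFE2L2 lay between 176 CPM in parental cells and 205 CPM in the AGO2 knockout, and KEAP1 between 78.3 CPM in the double knockout and 103 CPM in the ANKRD52 knockout. The targets GCLC (91.6 CPM in the ANKRD52 knockout to 116 in parental cells) and SRXN1 (97.8 in the ANKRD52 to 134 in the double knockout) ranged about as little as KEAP1. Divided by exon length, the mean level over all groups was 185 CPM per kilobase for NQO1, above 98.3% of 11838 genes with a length, and 101 for TXNRD1, above 95.9%. OSGIN1 was the least abundant of the 9 at 6.06 CPM per kilobase, above 39.0% of genes.

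**Figure D2:**
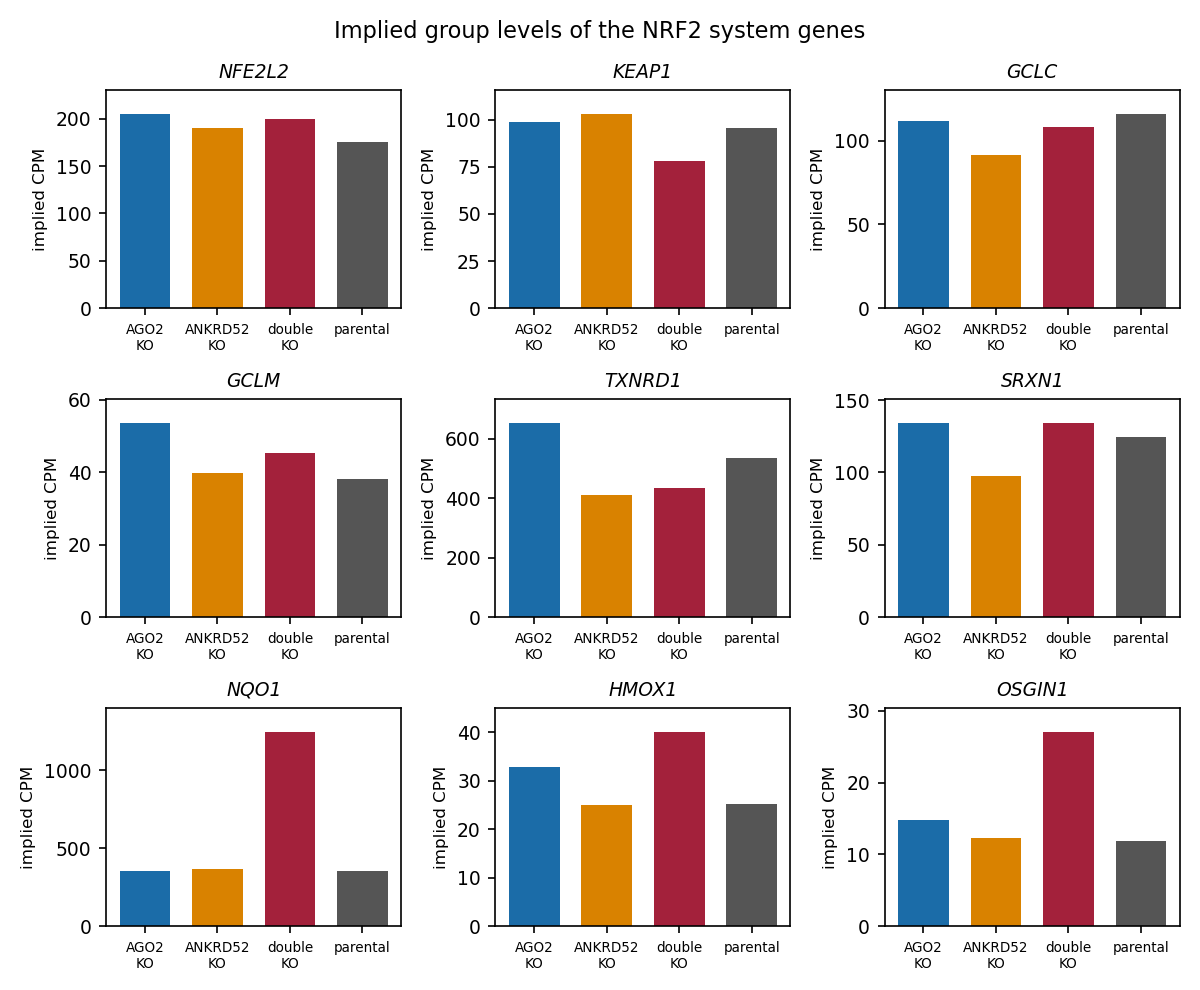
Implied level in CPM (vertical axis, from 0) of each of the 9 genes, with a bar for the AGO2 knockout, the ANKRD52 knockout, the double knockout and parental cells. The bars carry no error, since they are derived from the authors' mean level and fold changes. NQO1 reaches 1247 CPM in the double knockout.

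Whether the knockouts differ from each other was tested on the differences of the fold changes, in which the parental level drops out. Between the double and the ANKRD52 knockout 6 of 9 genes were called, against 34.5% of the 11876 genes tested, 18.1% higher and 16.3% lower. In the double knockout 5 were higher (NQO1, OSGIN1, HMOX1, SRXN1 and GCLC) and 1 was lower (KEAP1). NQO1 was 3.39-fold higher in the double than in the ANKRD52 knockout (log2 difference 1.76, standard error 0.20, approximate adjusted p = 1.35e-16), OSGIN1 2.21-fold (1.14, 0.15, 3.04e-13) and HMOX1 1.60-fold (0.68, 0.13, 2.62e-06). SRXN1 was 1.37-fold higher (0.46, 0.11, approximate adjusted p = 0.000164) and GCLC 1.19-fold (0.25, 0.094, approximate adjusted p = 0.0299). KEAP1 was lower, with a log2 difference of -0.40 (standard error 0.13, approximate adjusted p = 0.00966). TXNRD1 (0.08, interval -0.14 to 0.29), NFE2L2 (0.07, -0.09 to 0.24) and GCLM (0.20, -0.08 to 0.47) were not called. With a t distribution of 8 degrees of freedom the differences of KEAP1 and GCLC lost their call (adjusted p = 0.0660 and 0.102).

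Between the ANKRD52 and the AGO2 knockout 5 of 9 genes were called, all lower in the ANKRD52 knockout, against 9.43% of genes called, 5.52% higher and 3.91% lower. TXNRD1 differed by -0.67 on the log2 scale (standard error 0.11, approximate adjusted p = 2.70e-07), SRXN1 by -0.46 (0.11, 0.00124), GCLM by -0.44 (0.14, 0.0277), HMOX1 by -0.40 (0.13, 0.0341) and GCLC by -0.29 (0.094, 0.0326). TXNRD1 and SRXN1 were the 2 of these that held at an approximate adjusted p under 0.01, a variance taken as the sum of both squared standard errors left TXNRD1 alone, and a t distribution with 8 degrees of freedom left 0 of 9. OSGIN1 (-0.27, interval -0.56 to 0.02), NFE2L2 (-0.11, -0.28 to 0.06), NQO1 (0.06, -0.33 to 0.45) and KEAP1 (0.06, -0.19 to 0.32) were not called.

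Between the double and the AGO2 knockout 4 of 9 were called, against 42.6% of genes, 21.6% higher and 21.0% lower. NQO1 was 3.55-fold higher and OSGIN1 1.83-fold higher in the double than in the AGO2 knockout (approximate adjusted p = 7.02e-18 and 4.05e-08). TXNRD1 was lower in the double knockout by a log2 difference of -0.59 (standard error 0.11, approximate adjusted p = 5.49e-07) and KEAP1 by -0.34 (0.13, 0.0273, or 0.0887 with the t distribution). The difference of HMOX1, 0.29, had an interval of 0.03 to 0.54 and an approximate adjusted p of 0.0652. For SRXN1 it was 0.0029 (-0.21 to 0.21). The order of the levels followed from these tests: for NQO1 and OSGIN1 the double knockout stood above all other groups, while the AGO2, ANKRD52 and parental levels were not separated. For TXNRD1 the AGO2 knockout stood above the double and the ANKRD52 knockout, which were not separated from each other. Parental TXNRD1 stood above both by edgeR (adjusted p = 0.0169 and 0.00857) and was not separated from the AGO2 knockout (adjusted p = 0.0800). Neither of those 2 calls held with the F distribution (adjusted p = 0.0712 and 0.134). The difference between the ANKRD52 and AGO2 knockouts did not hold with the t distribution.

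**Figure D3:**
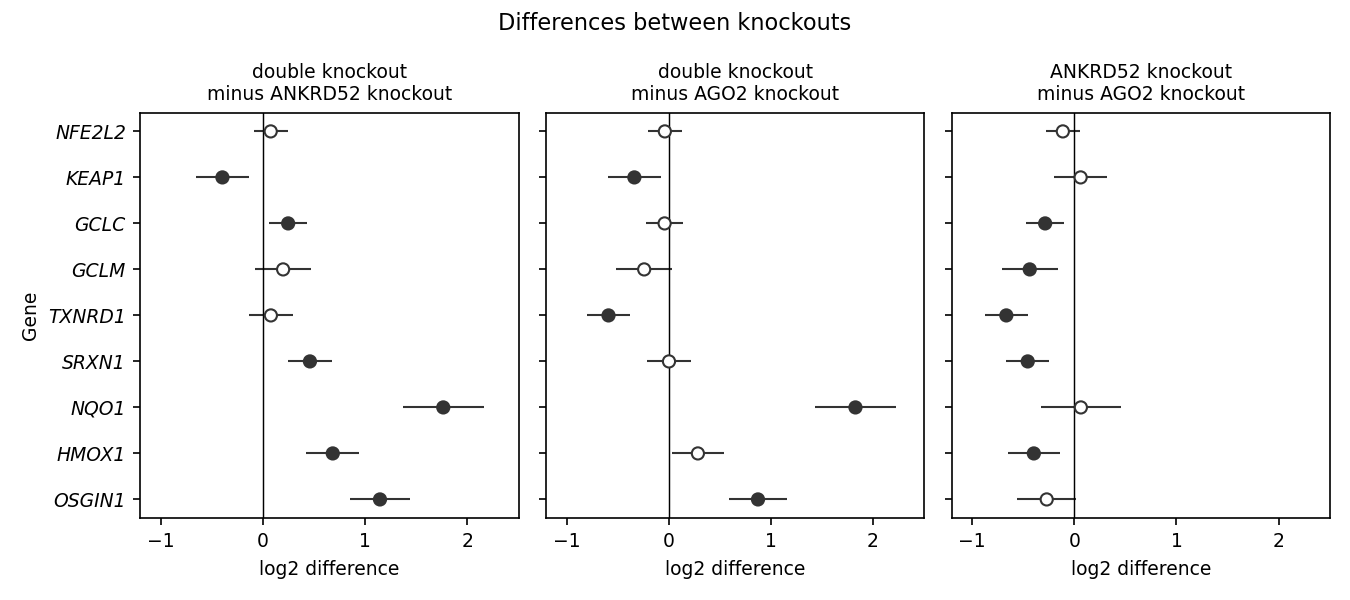
Difference of log2 fold changes (horizontal axis) for each of the 9 genes (vertical axis), as double minus ANKRD52 knockout, double minus AGO2 knockout and ANKRD52 minus AGO2 knockout, with approximate 95% intervals and filled points for an approximate adjusted p under 0.05. NQO1 lies at 1.76 and 1.83 in the panels with the double knockout and at 0.06 in the panel without it.

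NQO1 and OSGIN1 both lie on chromosome 16, so the listed genes beside them were examined. The 20 nearest listed neighbours of NQO1, 10 on each side in RefSeq order, had a median log2 fold change of -0.12 in the double knockout, from -0.91 to 0.98, and all lay below the value of NQO1. Those of OSGIN1 had a median of 0.07, from -1.07 to 1.48, so that at least 1 neighbour lay above OSGIN1 itself at 1.19. Those of HMOX1, on chromosome 22, had a median of -0.02, from -0.86 to 6.12, so that at least 1 neighbour lay above HMOX1 itself at 0.67. In the ANKRD52 knockout the neighbours of GCLC, TXNRD1 and SRXN1 had medians of 0.14, 0.12 and 0.03, whereas the genes themselves lay between -0.37 and -0.34. SRXN1 had 18 listed neighbours, against 20 for GCLC and TXNRD1. The lowest neighbour was at -0.82 for GCLC, -1.27 for TXNRD1 and -0.65 for SRXN1, each below the gene itself. In the AGO2 knockout the neighbours of GCLM had a median of 0.07, from -0.39 to 1.16, and GCLM lay within that range at 0.49.

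Since AGO2 acts through microRNAs, the 3′ UTRs of the 9 genes were searched for 7-base sites, the complement of bases 2 to 8, of 9 microRNA families, in the longest UTR of each gene in GENCODE release 29. KEAP1 has been described in human breast cancer cells as a target of miR-200a, and GCLM was the gene called in the AGO2 knockout, so the matching microRNAs and sites are shown, with the seed and its match in capitals (microRNAs from RefSeq, GRCh38.p14).
hsa-miR-200a-3p: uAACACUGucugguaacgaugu
KEAP1 site: ccaggatgcctCAGTGTTaaaatgacatc
hsa-miR-200b-3p: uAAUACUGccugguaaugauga
GCLM site: gatttttcaccCAGTATTttcaaaatttg
hsa-miR-21-5p: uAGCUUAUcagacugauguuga
GCLM site: attgcaaataaATAAGCTatgaactttga
hsa-miR-144-3p: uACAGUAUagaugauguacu
GCLM site: catatgttgggATACTGTgggctctggag
GCLM, with a UTR of 3785 bases, held sites of 4 of the 9 families, those shown and that of miR-17. It was followed by SRXN1 with 3 families in 2099 bases and KEAP1 with 2 in 532 bases. GCLC, HMOX1 and NQO1 held sites of 1 family each, and NFE2L2, TXNRD1 and OSGIN1 of 0. Such sites are common: 22.0% of 11394 UTRs held the miR-200a site and 19.8% the miR-200b site. For miR-17, miR-144 and miR-21 the shares were 25.8%, 16.7% and 9.98%. The counts of sites were not adjusted for the length of the UTR, which is longest for GCLM among the 9. A site match is a description, and which of these microRNAs HCT116 cells contain was not examined. KEAP1, with its miR-200a site, had a log2 value of 0.05 in the AGO2 knockout and 0.11 in the ANKRD52 knockout in the authors' deposited table, neither called.

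The wider pathway was read from further lists of known genes. Of 24 regulators and partners of NRF2, 1 fell and 0 rose in the AGO2 knockout, and 3 rose and 1 fell in the ANKRD52 knockout. In the double knockout 8 rose and 2 fell, against 22.9% of all genes called higher and 20.1% lower. In either direction 4.17%, 16.7% and 41.7% were called, near the shares of all genes given above. The largest rise in the double knockout was that of NFE2L1, which encodes the related factor NRF1, at 1.95-fold (adjusted p = 2.61e-21), followed by its relative NFE2L3 at 1.83-fold (adjusted p = 0.000272) in the authors' deposited table. TRIM21, a ubiquitin ligase that acts on the NRF2 pathway protein p62, rose 1.56-fold there (adjusted p = 1.20e-06) by the authors' deposited table. PGAM5, a mitochondrial phosphatase bound by KEAP1, had a log2 fold change of -0.40 in the double knockout and was called lower, by the authors' deposited table. In the AGO2 knockout the gene that fell was RXRA, a nuclear receptor, at -0.35 in log2 (adjusted p = 0.0287) by the authors' deposited table. In the ANKRD52 knockout NFE2L1 rose 1.28-fold, BTRC, which marks NRF2 for degradation by a route other than KEAP1, rose 1.28-fold and MAFK fell to 65.2% by the authors' deposited table, with adjusted p = 0.00499, 0.00104 and 0.0350. BACH1, the repressor, and CUL3 were chosen after their values were seen. BACH1 had 1.24-fold in the ANKRD52 knockout (adjusted p = 0.0613) and 0.974-fold in the double knockout (adjusted p = 0.819) in the authors' deposited table. CUL3 was called in none of the 3 comparisons.

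Of 34 further listed NRF2 targets, 2 rose and 0 fell in the AGO2 knockout, 4 rose and 2 fell in the ANKRD52 knockout, and 10 rose and 8 fell in the double knockout (5.88%, 17.6% and 52.9% called, against 6.10%, 13.7% and 43.0% of all genes). Their median log2 fold change was 0.12, 0.05 and -0.02 in the AGO2, ANKRD52 and double knockouts. Of 8 glutathione and transport genes 4 rose and 2 fell in the double knockout, where 22.9% of all genes were called higher and 20.1% lower, shares that apply to each smaller list of that knockout. There the cystine importer SLC7A11 rose 2.19-fold and the exporter ABCC3 4.31-fold, while the exporter ABCC2 fell to 17.8% and the glutathione reductase GSR to 70.5% by the authors' deposited table (adjusted p = 3.54e-07, 9.21e-23, 3.44e-07 and 4.21e-06). GPX2, an intestinal glutathione peroxidase, also passed as higher in the double knockout (adjusted p = 4.77e-20) in the authors' deposited table, but its implied parental level was 0.00392 CPM, so no fold is given. ABCC3 was called higher in the other knockouts too, with log2 fold changes of 0.65 in the AGO2 and 0.59 in the ANKRD52 knockout, by the authors' deposited table (adjusted p = 0.0279 and 0.0306). GSR fell to 75.2% in the ANKRD52 knockout (adjusted p = 0.00113), by the authors' deposited table.

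Of 6 genes that generate NADPH, the reductant that these enzymes use, 4 fell and 1 rose in the double knockout. There 43.0% of all genes were called, 20.1% lower and 22.9% higher. Among them the malic enzyme ME1 fell to 63.2%, TALDO1 to 78.7% and TKT to 80.8%, while the isocitrate dehydrogenase IDH1 rose 2.01-fold by the authors' deposited table. Their adjusted p were 5.15e-07, 0.000728, 0.00205 and 1.99e-10, from edgeR. In the ANKRD52 knockout 1 of the 6 was called, TKT, at 84.2% of parental (adjusted p = 0.0393, edgeR), against 13.7% of all genes called. In the AGO2 knockout 0 of the 6 were called, against 6.10% of all genes. Of 3 thioredoxin system genes 0 passed in the double knockout and 1 in the ANKRD52 knockout, the peroxiredoxin PRDX6, which rose 1.33-fold (adjusted p = 0.00235) in the authors' deposited table. In the double knockout 1 of the 3 had an unadjusted edgeR p under 0.05 (TXN), and the share of all genes at that threshold is not given here. Of 10 listed detoxification genes 4 rose and 1 fell in the double knockout. TRIM16L rose 1.76-fold (adjusted p = 0.00255) in the authors' deposited table, and ALDH3A1, AKR1C3 and CBR3, with the smallest p, had implied parental levels of 0.831, 0.415 and 1.78 CPM. ABHD4, a lipase, rose by a log2 value of 0.39 in the AGO2 knockout and 0.40 in the ANKRD52 knockout by the authors' deposited table (adjusted p = 0.0212 and 0.00902). AKR1C3 also shares sequence with its AKR1C relatives, so its value is uncertain. Of 7 heme and iron genes 1 rose (SLC48A1, 1.28-fold, adjusted p = 0.0264) and 1 fell (BLVRB, to 70.3%, adjusted p = 0.0190) in the double knockout in the authors' deposited table.

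Antioxidant genes that are not usual NRF2 targets had a median log2 fold change of -0.24 in the double knockout. Of 21, 8 fell and 1 rose there, against 20.1% of all genes called lower and 22.9% higher. Both directions together made 42.9% called against 43.0% of all genes. In edgeR's test 0 passed in the AGO2 knockout (2 at an unadjusted p under 0.05) and 0 in the ANKRD52 knockout (5 unadjusted). Of all genes 6.10% and 13.7% passed, in the same order. The share of all genes at the unadjusted threshold is not given here, so nothing is read from the unadjusted counts. The lipid peroxidase GPX4 fell to 66.1%, the mitochondrial peroxiredoxin PRDX3 to 65.0% and the mitochondrial thioredoxin reductase TXNRD2 to 56.7%, and catalase (CAT) rose 2.02-fold by the authors' deposited table (adjusted p = 3.71e-09, 1.60e-07, 4.91e-06 and 9.51e-12).

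**Figure D4:**
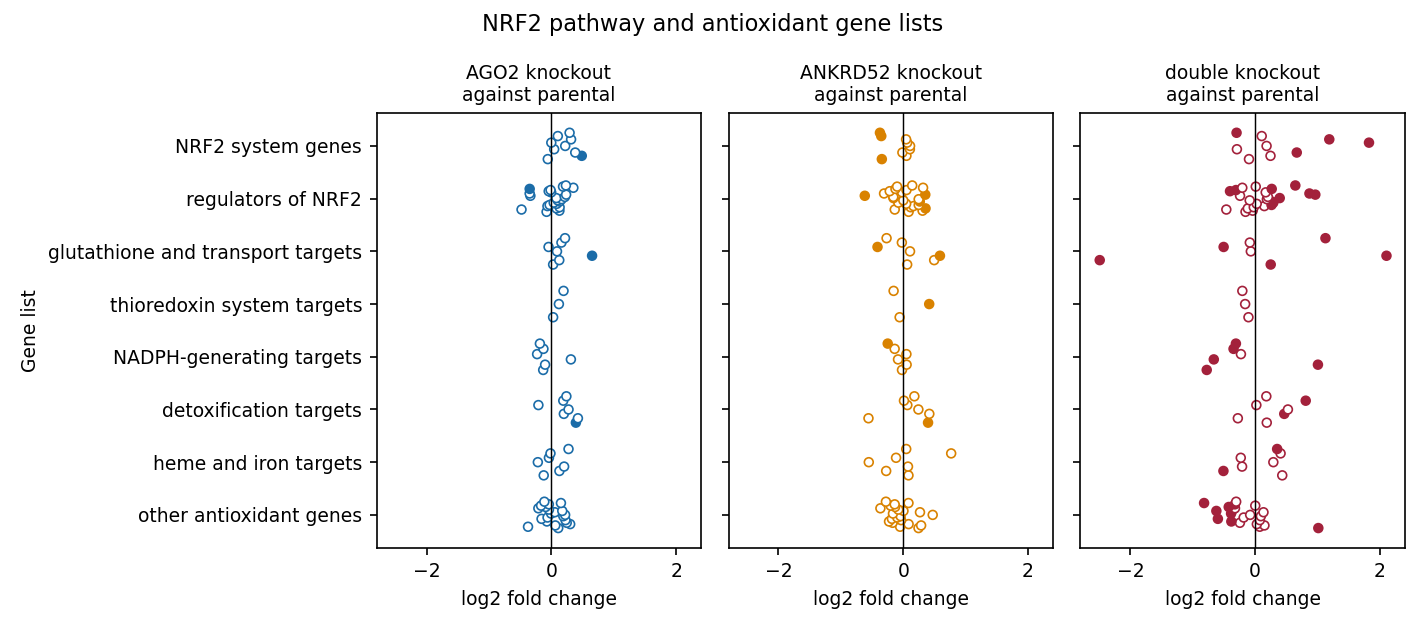
Log2 fold change against parental (horizontal axis) of the genes whose mean log2 CPM reached 1 in each NRF2 pathway and antioxidant list (vertical axis; cell type markers and targeted genes are not drawn), in the AGO2, ANKRD52 and double knockouts, with filled points for an adjusted p under 0.05. In the double knockout the filled points drawn run from ABCC2 at -2.49 to ABCC3 at 2.11.

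The genes whose 3 log2 fold changes lay nearest to those of NQO1, by Euclidean distance over 3 comparisons and among 11876 genes, were CHML (distance 0.052), LINC00341 (0.12) and SLC12A2 (0.12). For NFE2L2 they were SLC12A9 (0.023), FTSJD1 (0.026) and TJP1 (0.030), profiles as flat as that of NFE2L2. None of these 6 genes is in the lists above.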

How the data were processed

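Stranded polyA libraries of HCT116 cells were sequenced in 4 groups of 3. The authors deposited 3 edgeR tables, 1 per knockout against parental. Per the file headers, the authors deposited for each gene a log2 fold change, a mean log2 CPM, a likelihood ratio (a score with no fixed range), a p-value and an adjusted p-value. Per the submitters' processing notes, the authors used edgeR 3.8.6, featureCounts 1.4.6 and TopHat2 2.0.12 with the hg19 build, roles not given. A check found the authors' p-values to equal the chi-square tail (1 degree of freedom) of each likelihood ratio, with Benjamini-Hochberg adjustment across 12756 genes. Depth and replicate spread cannot be read from these tables.

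From them, an approximate standard error was obtained by dividing the size of each log2 fold change by the root of its likelihood ratio, and gave 95% intervals. Differences between knockouts were tested by a two-sided normal test, with the variance as the mean of both squared standard errors and p-values adjusted (Benjamini-Hochberg) across the 11876 genes whose mean log2 CPM reached 1. Group levels were implied from the mean and the fold changes. Promoters (GRCh38.p14, RefSeq) and the longest 3′ UTRs (GENCODE 29) were searched by letters. Named genes are all 9 members, the targeted genes, up to 4 called genes of each other list with the smallest p per comparison, and the 3 nearest profiles of NFE2L2 and NQO1; exceptions are marked in the text, and 1 gene that the rule names is not reported here. The members and lists were chosen with earlier results of these data known. Alternatives were a stricter threshold, F or t references, a level filter, centring on the median and a summed variance. Software was pandas 2.3.3, scipy 1.17.1, numpy 2.4.6 and, for figures, matplotlib 3.10.9, under Python 3.11.15.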

Additional observations from a re-analysis of the deposited data

How the results depend on the processing

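At an adjusted p under 0.01 the count of the 9 genes called was 0 in the AGO2 knockout (1 as reported) and 2 between the ANKRD52 and AGO2 knockouts (5 as reported). Referred to F with 1 and 8 degrees of freedom, it was 0 in the AGO2 and 0 in the ANKRD52 knockout (3 as reported), where 0 and 3 of all genes were called. Between the ANKRD52 and AGO2 knockouts it was 1 with the summed variance and 0 with a t distribution with 8 degrees of freedom. Counts of all genes at the stricter threshold, with the summed variance and with the t distribution are not given here. The cause of these losses was not tested. Promoters with a core numbered 6, and 3 with TGACNNNGC, which is the narrower pattern by construction. The SRXN1 difference of the double minus the AGO2 knockout, 0.0029, became -0.0069 after centring on the median. In the double knockout the count stayed between 3 and 5 under every alternative run (4 as reported), with NQO1, OSGIN1 and HMOX1 called in each. No paired analysis was possible because the tables hold comparisons of whole groups and no values of single libraries, and for the same reason leaving out a replicate was not run. The approximate standard errors rest on the authors' dispersion estimates, and the depth behind them is unknown.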
